A study of Mus musculus with 8 samples.

Results

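MEP were compared with LSK in marrow that lacked Ezh2, to describe which genes kept the difference between the fractions and which lost it. LSK is the marrow fraction with the stem cells, defined by lack of Lineage markers and by c-Kit and Sca-1, and MEP is the fraction of bipotent progenitors that make platelets and red cells. The comparison rests on 2 pairs of arrays, taken from the sample titles: MEP over LSK of Ezh2Δ/Δ marrow (the Ezh2Δ/Δ pair) and MEP over LSK of JAK2V617F/Ezh2Δ/Δ marrow (the double-mutant pair). Genes were kept when they were well above background on at least 1 side of both pairs, which gave 12642 of the 20887 genes matched on the array. The WT and JAK2V617F pairs, together the Ezh2-intact pairs, served as background, and 12030 of the genes were measured in them by the same rule.

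Marrow came from C57BL/6 mice that all carried the inducible recombinase Cre-ERT2: Cre-ERT2 alone (WT), Ezh2 flox/flox with Cre-ERT2 (Ezh2Δ/Δ), JAK2V617F with Cre-ERT2, and JAK2V617F with Ezh2 flox/flox and Cre-ERT2 (double mutant). Recipients were wild-type CD45.1+ mice given lethal irradiation, Ezh2 was deleted 4 weeks after the transplant, and both fractions were sorted 2 months after transplantation. With 1 one-colour Agilent array for each of the 8 groups, nothing was replicated within a group. The spread is that between genotypes, in a fit without a term for the pair. The recombinase is not restricted to blood cells by the labels, and the number of animals behind an array is not given there.

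Ezh2 supplies the enzyme activity of PRC2, the polycomb complex that methylates histone H3 at lysine 27 and so keeps genes of other lineages and stages silent. LSK express surface receptors and regulators of stem cells beside primed lymphoid and myeloid genes, and MEP switch on the erythroid and megakaryocyte programmes. JAK2V617F is the activated form of a kinase of cytokine receptor signalling found in myeloproliferative neoplasms.

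From 39.8% to 48.8% of probes per array were well above background. A level is a log2 signal after the 75th percentile of its array was subtracted, and levels are compared only within a gene. Differences are log2 MEP minus LSK, so that negative values mean higher in LSK, and a value not above background was raised to the dimmest signal of its array that was, or kept as measured where it lay higher. A fold with such a value on its dimmer side is a lower bound. Errors are standard errors (SE) of a limma fit over all 8 arrays, which uses values as measured, and p-values are adjusted over the 13187 genes fitted. The sex-linked genes moved with Ezh2 status: Xist lay from 1.57 to 2.99 where Ezh2 was deleted and no higher than -3.07 elsewhere, and the Y-linked Eif2s3y was above background on the Ezh2-intact arrays only. A difference between MEP and LSK of Ezh2-deleted marrow is therefore within 1 marrow sex, whereas any contrast of Ezh2-deleted with Ezh2-intact pairs cannot be told apart from marrow sex. The rows of the slide hold the cell types and its columns the genotypes, so position on the slide cannot be told apart from either. In these bulk samples fewer cells of a type and less RNA per cell cannot be told apart.

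The Ezh2 probe read 3.36 in Ezh2Δ/Δ LSK and 3.59 in double-mutant LSK, and 4.04 and 3.57 in the matching MEP. It was well above background on every array, its exon is not known from the files, and it checks nothing about the deletion. Jak2 read 2.59 and 2.21 in the 2 Ezh2-deleted LSK samples and 3.07 and 2.51 in the MEP. Neither gene differed between the fractions beyond the spread of the limma fit (adjusted p = 0.46 and 0.35).

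The fraction markers kept their difference in full without Ezh2. Rhd, an Rh blood group gene, was at 6.31 and 5.60 in Ezh2Δ/Δ and double-mutant MEP and below background in both LSK samples, at least 745-fold apart (log2 9.54 as measured, SE 0.41, n = 2 pairs, adjusted p = 4.5e-05). Car1, the red cell carbonic anhydrase, was at 7.67 and 7.15 in MEP and at -1.13 and -0.54 in LSK, a 303-fold difference. MEP lay far above LSK for both genes with no overlap.

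On the LSK side Flt3, a receptor kinase of early lymphoid and myeloid cells, was at 5.19 and 4.04 in LSK and below background in both MEP samples (at least 176-fold, adjusted p = 4.6e-05). Ly6a, which encodes Sca-1, was at 3.46 and 3.79 in LSK, and in MEP it was above background only in the double mutant, at -2.65 (at least 77.9-fold, adjusted p = 4.5e-05). The labelled fractions thus carried their defining markers on all 4 arrays.

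With limma 717 genes (5.44% of those fitted) were higher in MEP and 1716 (13.0%) higher in LSK when Ezh2 was deleted, 678 and 1662 of them among the 12642 genes described here. With Ezh2 intact the counts were 988 (7.49%) and 1665 (12.6%). These shares of all genes fitted are the background for the counts of list genes below. The split between the directions moved with the settings: 29.5% of the calls were higher in MEP as given, 39.6% after normexp correction, 39.1% after dim values were raised to the floor and 36.3% with a variance prior that follows the mean signal. The total of 2433 calls (18.4%, against 20.1% with Ezh2 intact) came to 1421 without the Ezh2Δ/Δ LSK array, 1196 without Ezh2Δ/Δ MEP and 1227 without double-mutant MEP.

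The 10 genes with the widest difference towards MEP were led by Rhd. Beside Rhd and Car1 they were Col5a1, a fibrillar collagen chain (at least 236-fold), the amino acid transporter Slc38a5 (257-fold), the sodium pump subunit Atp1b2 (184-fold) and the sphingosine kinase Sphk1 (164-fold). Add2, a subunit of the membrane skeleton protein adducin, was at 3.52 and 3.04 in MEP and below background in both LSK samples (at least 129-fold). The claudin Cldn13, the mitochondrial carrier Slc25a21 and the Wnt antagonist Sfrp4 were likewise below background in LSK, at least 143-fold, 121-fold and 75.6-fold apart.

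Flt3 led the 10 genes with the widest difference towards LSK, and Ly6a was among them. Cd34, the sialomucin used to part stem from progenitor cells, was at 7.99 and 7.70 in LSK and at 0.92 and 1.24 in MEP, a 108-fold difference (adjusted p = 4.9e-05). The protease inhibitor Wfdc17 (at least 128-fold), the chemokine Ccl9 (at least 80.9-fold), the receptors Gpr171 (at least 76.8-fold) and Adgrl4 (at least 64.2-fold), the lipid phosphatase relative Plppr3 and the myosin light chain Myl10 (70.9-fold) followed. None of these genes overlapped between the fractions, but they were chosen for the width of their difference. The lack of overlap follows from that choice and is not a separate result.

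Erythroid genes kept their MEP side. Of 24 genes of the red cell membrane and blood groups 20 were higher in MEP and 0 lower (list median 3.98, against 0.09 over all genes fitted), and 22 were higher with Ezh2 intact. The blood group gene Kel was at 3.03 and 3.10 in MEP (at least 73.4-fold), and the translocator protein Tspo2 was at 6.49 and 6.34 in MEP and at -0.93 and 0.15 in LSK (112-fold). Of 19 genes of heme synthesis and iron handling 14 were higher and 0 lower, with a median of 1.86. Among them Slc40a1, the iron exporter ferroportin, was at least 45.0-fold apart, Blvrb, a biliverdin reductase, 25.0-fold and Cpox, coproporphyrinogen oxidase, 9.29-fold.

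Of 18 regulators of the erythroid programme 6 were called higher in MEP, 0 higher in LSK and 12 not called with Ezh2 deleted. With Ezh2 intact 10 were called higher in MEP, and the medians were 0.66 and 1.19. Of the 18, 0 passed the test of the difference between the deleted and intact pairs. Klf1, the master regulator of red cell genes, was at 4.03 and 3.28 in MEP, and in LSK it was below background in Ezh2Δ/Δ and at -1.35 in the double mutant (at least 68.2-fold, adjusted p = 0.00046). Gata1 was at 6.98 and 6.37 in MEP against 2.65 and 4.29 in LSK, so its difference was 4.33 in the Ezh2Δ/Δ pair and 2.08 in the double-mutant pair (adjusted p = 0.0035). That call was lost without the Ezh2Δ/Δ MEP array (adjusted p = 0.0614). Of 5 globin genes measured Hba-a1 and Hba-a2 were higher in MEP (18.3-fold and 21.0-fold), and both calls were lost without the double-mutant MEP array (adjusted p = 0.0684 and 0.0652). These alpha globin copies are near identical, and their probes may share signal.

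Stem cell genes kept their LSK side. Of 22 stem cell surface genes 16 were higher in LSK and 0 in MEP (list median -2.55, with Ezh2 intact -2.37). Over all genes fitted 13.0% were higher in LSK and 5.44% in MEP. Robo4, an endothelial and stem cell guidance receptor, and Procr, the protein C receptor of stem cells, were below background in MEP, at least 60.1-fold and 37.4-fold apart. Of 30 stem cell regulators 12 were higher in LSK and 2 higher in MEP. The stem cell factor Hlf was at 3.59 and 1.96 in LSK and at -1.51 and -2.13 in MEP (24.2-fold, adjusted p = 0.0012). The 2 higher in MEP were Tal1 (2.93-fold) and Gfi1b (4.99-fold), which also act in red cells. Tal1 was not called without Ezh2Δ/Δ LSK (adjusted p = 0.140), Ezh2Δ/Δ MEP (0.101) or double-mutant MEP (0.0627), nor Gfi1b without Ezh2Δ/Δ MEP (0.0687).

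Of 422 genes at least 4-fold higher in LSK in both Ezh2-intact pairs, 414 were still at least 2-fold higher in LSK in both deleted pairs, and 318 kept the 4-fold difference (75.4% of the intact set and 67.5% of the 471 genes that met it with Ezh2 deleted). Of 204 genes at least 4-fold higher in MEP in both intact pairs 183 were still at least 2-fold higher in both deleted pairs and 126 kept 4-fold (61.8% of the intact set, 84.6% of the 149 that met it with Ezh2 deleted), while 9 were not measured in both deleted pairs. At 2-fold, 851 of 1052 LSK genes (80.9%) and 349 of 623 MEP genes (56.0%) met the rule in the deleted pairs too, with 1 and 33 not measured there. No gene that was 2-fold apart in both intact pairs turned to a 2-fold difference the other way in both deleted pairs. A gene was counted as lost when it was at least 4-fold apart in both intact pairs and under 2-fold apart in both deleted pairs, and only 3 genes met this: Bex1 and Scnn1a on the LSK side (0.0166% of the genes measured in all 4 pairs) and Dpysl3 on the MEP side (0.00831%). With 1 pair fewer to meet the rule, 12 LSK and 22 MEP genes were lost without the WT arrays, 7 and 19 without JAK2V617F, 3 and 10 without Ezh2Δ/Δ and 7 and 4 without the double mutant. The mirror case, at least 4-fold apart without Ezh2 and under 2-fold apart with it, held Gzmb alone.

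**Figure D1:**
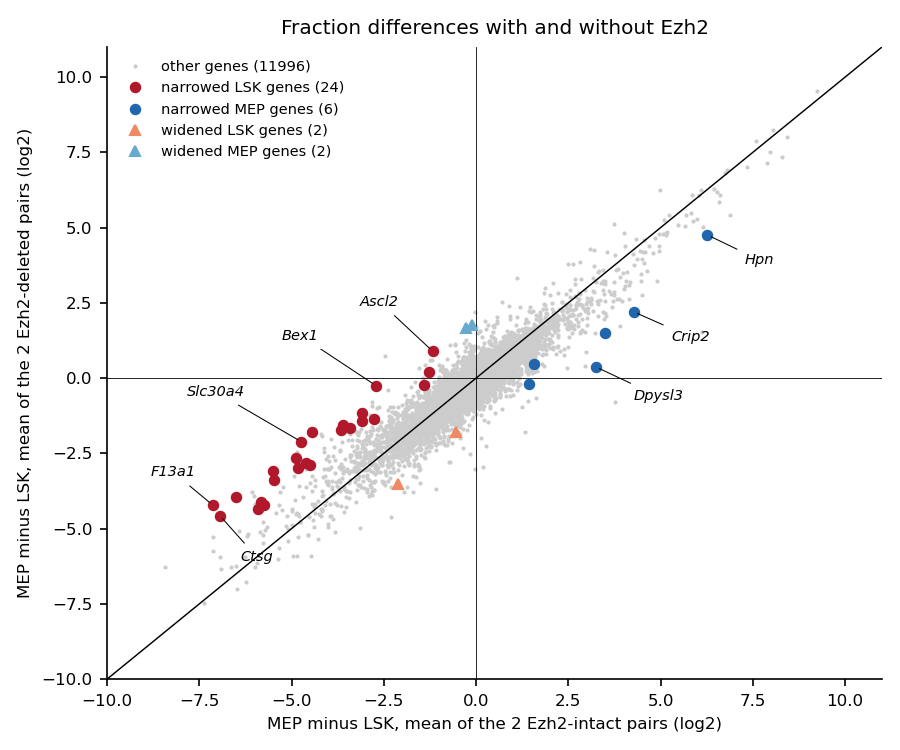
Mean difference of MEP minus LSK (log2) over the 2 Ezh2-intact pairs (horizontal) and the 2 Ezh2-deleted pairs (vertical) for 12030 genes, 1 point per gene, with the line of equal differences. Most genes lie along the line, and the 24 LSK genes whose difference narrowed lie above it on the left.

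Bex1 was the clearest loss. Bex1, an X-linked gene for a small signalling adaptor, was at 3.04 in WT LSK, 1.53 in JAK2V617F LSK, 4.02 in Ezh2Δ/Δ LSK and 4.46 in double-mutant LSK. In MEP it was at -0.21, -0.65, 3.80 and 4.19 in the same order. Both Ezh2-deleted MEP samples lay at the level of their LSK partners, above all Ezh2-intact samples of either fraction. The difference was -3.25 and -2.18 in the intact pairs and -0.22 and -0.27 in the deleted pairs, with a 1.19-fold difference left (adjusted p = 0.74 for MEP against LSK with Ezh2 deleted). A second Bex1 probe gave means of -0.20 in the deleted and -2.39 in the intact pairs. The contrast of deleted with intact pairs, 2.47 (SE 0.66), did not pass the test (adjusted p = 0.69). It was 3.29 without JAK2V617F LSK, the intact LSK array with the lower Bex1 level.

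Scnn1a, a subunit of the epithelial sodium channel, was at -0.70 and 0.65 in the intact LSK samples and at -1.85 and -2.23 in the Ezh2-deleted ones. It was below background in all 4 MEP samples, so that without Ezh2 the difference is known only as at least 1.74-fold. As measured it was still called higher in LSK (adjusted p = 0.0029), a call lost without double-mutant MEP (0.0636).

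Because a loss was rare, narrowing was described with a looser rule, chosen after the values were seen: at least 2-fold apart in both intact pairs, at least 2-fold less apart in both deleted pairs than in either intact pair, and the dimmer side above background on both deleted arrays. On the LSK side 24 genes narrowed (0.200% of 12030) and 2 widened by the mirror rule (0.0166%), and on the MEP side 6 narrowed (0.0499%) and 2 widened (0.0166%). The values that chose these genes are those given here, so no test supports the counts. Just inside the threshold on the LSK side were Mpzl1 with a gap of 1.04 between the nearest intact and deleted differences, Tyrobp with 1.05 and Prkcb with 1.06, and just outside Lbp with 0.99, C3 with 0.96 and Gstm1 with 0.96. Of the 24 genes 20 were still called higher in LSK without Ezh2. None passed the test of deleted against intact pairs, the lowest adjusted p being 0.0798 for F13a1 and 0.094 for Slc30a4. Of all 13187 genes 1 (0.00758%) passed it and 482 (3.66%) had an unadjusted p under 0.05. In simulated data the same test recovered 0, 14, 47 and 50 of 50 genes at true log2 differences of 1, 2, 3 and 4. Those data held altered genes of all 4 sizes at once and independent noise, so the recovery may not carry over to these arrays. The count of 1 became 0 without WT MEP, Ezh2Δ/Δ MEP or double-mutant MEP, 7 without JAK2V617F MEP, 9 without Ezh2Δ/Δ LSK, 31 without JAK2V617F LSK and 93 without WT LSK.

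The excess of narrowed over widened LSK genes depended on the settings. It was 12 against 1 after normexp correction, with 11 of the 24 genes among the 12, 21 against 3 after quantile normalization and 29 against 3 with the mean over probes. With 1 pair left out the rule rests on fewer pairs and admits more genes. It then gave 63 against 35 without the Ezh2Δ/Δ pair, 87 against 21 without the JAK2V617F pair, 52 against 45 without the double-mutant pair and 81 against 95 without the WT pair, so the excess on the LSK side was not kept without the WT arrays. 2 of the 24, Bex1 and Cfp, lie on the X chromosome.

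**Figure D2:**
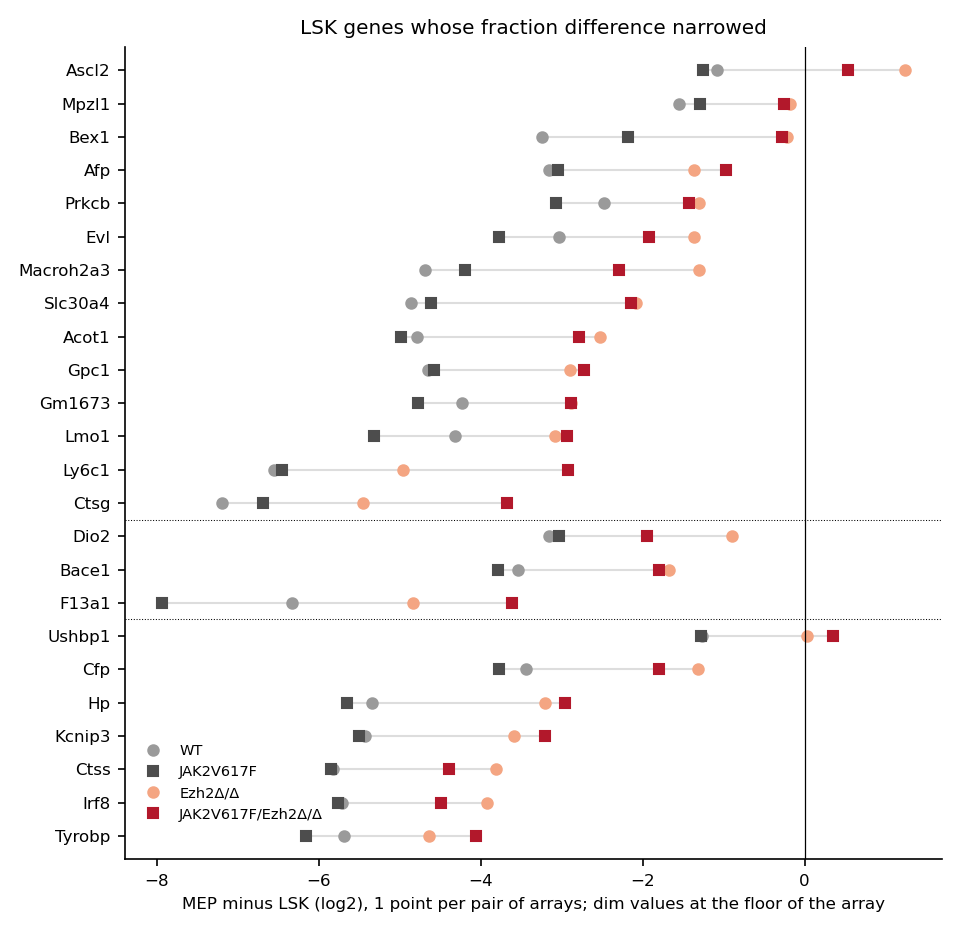
Difference of MEP minus LSK (log2) in each of the 4 pairs for the 24 LSK genes that narrowed, 1 point per pair of arrays. Dotted lines part the 14 genes with a higher MEP level without Ezh2, the 3 with a lower LSK level and the 7 others. Both Ezh2-deleted points lie to the right of both Ezh2-intact points in every line, as the rule requires, and at or past 0 only for Ascl2 and Ushbp1.

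The larger group of narrowed genes had a higher MEP level. In 14 of the 24 the MEP level was at least 2-fold higher with Ezh2 deleted in both JAK2 backgrounds. In 3 the LSK level was at least 2-fold lower in both, and 7 met neither. Of all 12642 genes described here 146 (1.15%) had such a higher MEP level and 24 (0.190%) such a lower LSK level. The rule itself asks for a smaller difference, so nothing is read from these counts. The 14 were Acot1, Afp, Ascl2, Bex1, Ctsg, Evl, Gm1673, Gpc1, Lmo1, Ly6c1, Macroh2a3, Mpzl1, Prkcb and Slc30a4, and the 3 were Bace1, Dio2 and F13a1.

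Slc30a4, a zinc transporter, was at 2.18, 1.68, 2.78 and 2.57 in LSK of WT, JAK2V617F, Ezh2Δ/Δ and double-mutant marrow. In MEP it was below background in both intact samples and at 0.71 and 0.42 in the Ezh2-deleted ones. The LSK samples stayed above all MEP samples, but the difference was -4.86 and -4.62 in the intact pairs, as bounds, and -2.08 and -2.15 in the deleted pairs (4.33-fold without Ezh2, adjusted p = 0.0013). Its contrast of deleted with intact pairs was 2.89 (SE 0.37, adjusted p = 0.094), and it passed with a variance prior that follows the mean signal (adjusted p = 0.0199). The contrast was 2.86 without WT LSK and 2.93 without JAK2V617F LSK.

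Ascl2, a basic helix-loop-helix transcription factor of stem and trophoblast cells, turned to the MEP side in both deleted pairs. It was at -0.63, -0.58, -0.61 and -0.38 in LSK, nearly level across the genotypes. In MEP it was at -1.72 and -1.83 with Ezh2 intact and at 0.63 and 0.15 with Ezh2 deleted. MEP lay below LSK in the 2 intact pairs and above it in the 2 deleted pairs, by 1.24 and 0.53. The difference with Ezh2 deleted did not pass the test (0.89, SE 0.27, adjusted p = 0.06).

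Other genes of this group kept LSK above MEP. Acot1, an acyl-CoA thioesterase, was at 0.25 and -0.27 in Ezh2-deleted MEP against -1.56 and -2.32 in intact MEP, and 6.31-fold higher in LSK without Ezh2 (adjusted p = 0.00038). Its contrast of deleted with intact pairs passed among genes above background on all 8 arrays (2.23, adjusted p = 0.0279). Gpc1, a glypican, and Lmo1, a LIM-only transcription cofactor, were 7.01-fold and 8.02-fold higher in LSK without Ezh2. Gm1673 was above background in MEP only without Ezh2, at -0.46 and -0.13, and 7.37-fold higher in LSK.

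Evl, an actin regulator, was at 2.71 and 2.44 in Ezh2-deleted MEP against 0.07 and -0.37 in intact MEP, and it was 3.13-fold higher in LSK without Ezh2 (adjusted p = 0.0065). Macroh2a3, named as a histone H2A variant, was at 0.90 and 0.14 in Ezh2-deleted MEP and 3.48-fold higher in LSK. Both calls were lost without the double-mutant LSK array (adjusted p = 0.0582 and 0.0606) or the double-mutant MEP array (0.0681 and 0.104). Prkcb, a protein kinase C, was 2.57-fold higher in LSK, a call lost when each of the 4 Ezh2-deleted arrays was left out in turn (adjusted p from 0.0627 without double-mutant LSK to 0.105 without Ezh2Δ/Δ LSK). Mpzl1, a surface glycoprotein, was at 1.65 and 2.31 in Ezh2-deleted MEP against 1.82 and 2.56 in LSK, a 1.16-fold difference that was not called (adjusted p = 0.58).

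Afp encodes alpha-fetoprotein, a serum protein of the fetal liver. It was at 2.17 and 2.70 in Ezh2-deleted LSK and at 0.81 and 1.73 in Ezh2-deleted MEP, against -1.10 and -1.08 in intact MEP. All Ezh2-deleted MEP samples lay above the intact ones and below every LSK sample. The remaining 2.25-fold difference was called (adjusted p = 0.038) and was lost without Ezh2Δ/Δ LSK (0.126), double-mutant LSK (0.189), Ezh2Δ/Δ MEP (0.206), WT MEP or JAK2V617F MEP (both 0.0529).

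**Figure D3:**
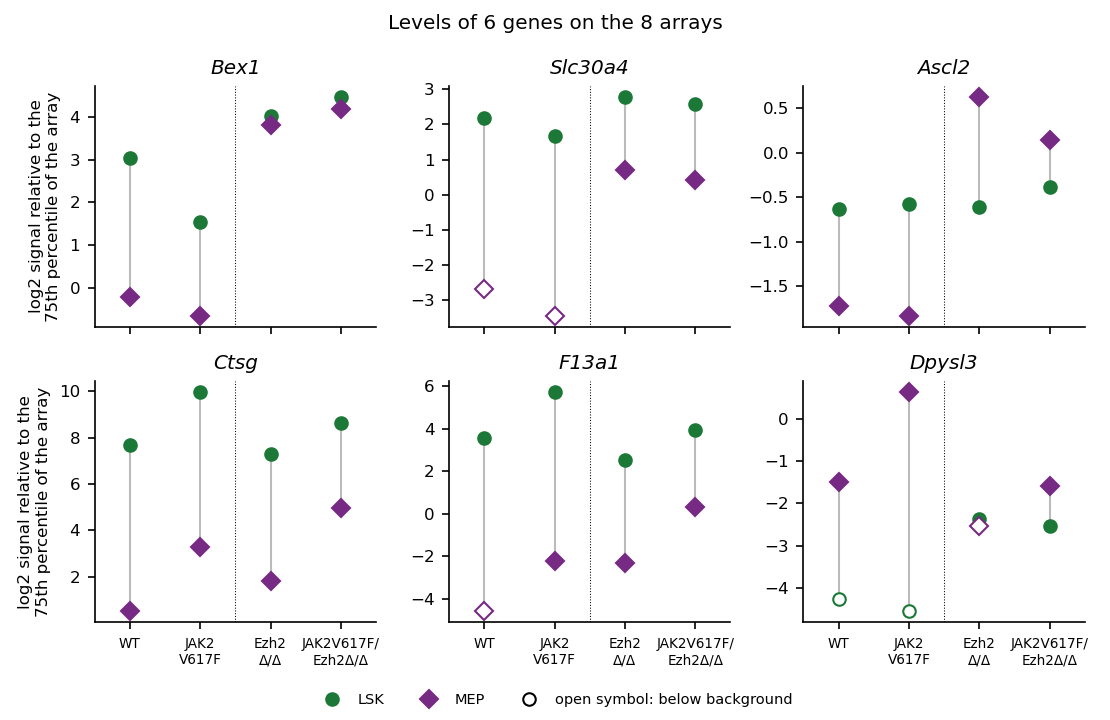
Levels of 6 genes on the 8 arrays (log2 signal minus the 75th percentile), with LSK as circles, MEP as diamonds and open symbols for values below background. Right of the dotted line, without Ezh2, the 2 fractions meet for Bex1, cross for Ascl2 and stand closer together for Slc30a4, Ctsg and F13a1, while Dpysl3 shows the narrowing of a MEP gene.

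The stretch of 250 bases before the start was looked at for CG pairs, since CG-dense promoters are the kind at which PRC2 is known to sit. Of the 14 genes with a higher MEP level 12 had a promoter listed, with a median of 15.5 CG pairs and 15 or more in 7 of them. Of the other 10 narrowed genes 7 had a promoter listed, with a median of 4 and 15 or more in 1. Over the 10136 genes described here with a listed promoter the median was 15 (15 or more in 52.3%), and over the 324 listed among the genes 4-fold higher in LSK with Ezh2 intact it was 9 (34.9%). Over all 27025 listed promoters the median was 6 (15 or more in 27.5%). The first 14 were thus near the median of the genes described here. They were above that of the 4-fold LSK genes and of all listed promoters. No test was made of genes chosen by their values. Slc30a4 with 40 CG pairs, Ascl2 with 19 and F13a1 with 3 are shown as examples with many and with few. Sequences are from RefSeq on GRCm38.p6, 5′ to 3′ in the direction of the gene, ending at the base before the start, with each CG in capitals. They lie at chr2:122702664-122702913, chr7:142969265-142969514 and chr13:37050245-37050494, all on the minus strand.
Slc30a4: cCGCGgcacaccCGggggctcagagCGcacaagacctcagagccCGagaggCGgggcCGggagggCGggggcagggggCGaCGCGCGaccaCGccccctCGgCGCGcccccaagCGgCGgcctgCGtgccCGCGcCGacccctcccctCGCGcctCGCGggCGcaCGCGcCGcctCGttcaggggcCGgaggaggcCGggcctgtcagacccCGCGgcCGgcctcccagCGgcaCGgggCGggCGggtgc
Ascl2: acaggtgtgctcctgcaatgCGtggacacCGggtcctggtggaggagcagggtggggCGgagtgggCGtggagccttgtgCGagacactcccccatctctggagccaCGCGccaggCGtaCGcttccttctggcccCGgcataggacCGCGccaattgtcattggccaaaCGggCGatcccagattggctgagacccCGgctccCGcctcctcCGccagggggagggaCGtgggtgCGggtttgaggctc
F13a1: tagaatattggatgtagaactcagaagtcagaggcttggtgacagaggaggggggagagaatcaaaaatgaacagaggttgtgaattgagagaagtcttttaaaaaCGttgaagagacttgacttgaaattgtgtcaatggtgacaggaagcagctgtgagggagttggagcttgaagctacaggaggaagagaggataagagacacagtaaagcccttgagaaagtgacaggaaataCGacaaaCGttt

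The motif GAGGAA, the core that the myeloid factor PU.1 binds, or TTCCTC on the other strand, was present in 3 of the 12 promoters of genes with a higher MEP level and in 3 of the 7 others, the latter including F13a1. It was present in 22.5% of the promoters of all genes described here and in 23.1% of all 27025 listed promoters. Among the 324 listed promoters of genes 4-fold higher in LSK with Ezh2 intact the share was 31.2%. A match is a description of letters and not a binding site.

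Monocyte genes stayed on the LSK side, most of them with a smaller difference in the contrast over both JAK2 backgrounds. Of 17 monocyte and macrophage genes 13 were higher in LSK and 0 higher in MEP without Ezh2, and 14 were with Ezh2 intact. The list median was -2.46 and -3.60 in the WT and JAK2V617F pairs and -2.61 and -2.39 in the Ezh2Δ/Δ and double-mutant pairs. Its size was thus smaller without Ezh2 only in the JAK2V617F background. The contrast of deleted with intact pairs was positive for 16 of 17, against 5636 of all 13187 genes fitted. It had an unadjusted p under 0.05 for 7, all positive, and 5 narrowed by the rule: Ctss, F13a1, Irf8, Ly6c1 and Tyrobp. None passed the adjusted test. Over all genes fitted 1.87% had an unadjusted p under 0.05 with a positive sign.

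F13a1, the A chain of coagulation factor XIII, was at 3.58, 5.73, 2.54 and 3.95 in LSK of WT, JAK2V617F, Ezh2Δ/Δ and double-mutant marrow. In MEP it was below background in WT and at -2.20, -2.29 and 0.33 in the other samples. The LSK level was lower and the MEP level higher without Ezh2 in each JAK2 background, and the fractions did not overlap. The difference was 18.7-fold without Ezh2 (adjusted p = 0.00017). Its contrast of deleted with intact pairs, 3.82 (SE 0.47, adjusted p = 0.0798), passed among genes above background on at least 4 arrays (0.0489) and with the mean-dependent prior (0.0105). The contrast was 3.83 without WT LSK, 4.31 without Ezh2Δ/Δ LSK and 3.82 without JAK2V617F LSK. A second F13a1 probe gave smaller means, -1.60 without and -2.84 with Ezh2.

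Irf8, the transcription factor of monocytes and dendritic cells, was at 4.01 and 4.67 in Ezh2-deleted LSK and at 0.09 and 0.18 in Ezh2-deleted MEP, against -1.45 and -0.19 in intact MEP (18.5-fold higher in LSK without Ezh2, adjusted p = 0.00021). Ctss, the lysosomal protease cathepsin S, was 17.2-fold higher in LSK, and Tyrobp, the adaptor DAP12 of myeloid receptors, 20.4-fold. Ly6c1, a surface antigen, was at 5.54 and 6.00 in LSK and at 0.58 and 3.08 in MEP, so its difference was -4.96 in the Ezh2Δ/Δ pair and -2.92 in the double-mutant pair. A second Ly6c1 probe gave -2.80 without and -5.62 with Ezh2. The myeloid genes remained LSK genes in all of these samples.

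Of 19 granulocyte genes 9 were higher in LSK and 2 higher in MEP without Ezh2 (median -1.67, with Ezh2 intact -2.89), and the contrast of deleted with intact pairs had an unadjusted p under 0.05 for 8, all positive, with 0 passing after adjustment. Among genes of the primary granules Ctsg, cathepsin G, was at 7.29 and 8.62 in LSK and at 1.83 and 4.94 in MEP (23.7-fold, adjusted p = 0.00031), and Prtn3, proteinase 3, was 16.3-fold higher in LSK. Mpo, myeloperoxidase, was at 8.47 and 9.18 in LSK and at 3.53 and 6.55 in MEP (13.8-fold), a call lost without Ezh2Δ/Δ MEP (adjusted p = 0.0618). In MEP each of the 3 was higher with JAK2V617F than without it, in both Ezh2 states.

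Hp, the haemoglobin scavenger haptoglobin, was at 2.71 and 5.06 in Ezh2-deleted LSK and at -0.49 and 2.10 in Ezh2-deleted MEP, and the difference narrowed from -5.35 and -5.65 in the intact pairs to -3.20 and -2.96 (8.47-fold higher in LSK, adjusted p = 0.00042). The contrast for Hp passed among genes above background on all 8 arrays (adjusted p = 0.0279), and it was 2.75 without WT LSK. The later granule genes Ngp, Ltf, Camp, S100a8, S100a9 and Chil3 lay on the MEP side in all 4 pairs. Of these Ngp (3.73-fold, adjusted p = 0.037) and Chil3 (2.76-fold, 0.026) were called higher in MEP without Ezh2. The Ngp call was lost without 5 of the 8 arrays (highest adjusted p = 0.274, without Ezh2Δ/Δ MEP) and that of Chil3 without double-mutant LSK (0.186), Ezh2Δ/Δ MEP (0.196) or double-mutant MEP (0.0803). The summed level of the 6 neutrophil markers was 4.15 and 6.00 in Ezh2-deleted LSK and 4.98 and 7.54 in Ezh2-deleted MEP, against 2.22 to 5.80 and 3.86 to 6.92 in the intact samples, and 5 or 6 of the 6 were above background on the Ezh2-deleted arrays. The summed level of 5 monocyte markers was 3.69 and 4.91 in Ezh2-deleted LSK and 3.09 and 3.33 in Ezh2-deleted MEP, against 4.30 and 6.14 in intact LSK and 3.13 and 2.86 in intact MEP. Of that list Csf1r was above background on all 8 arrays, whereas Adgre1 and Ccr2 were below background in all 4 MEP samples and Mrc1 on every array. The part of mature myeloid cells in the narrowing was not tested.

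The rest of the narrowed LSK genes had mixed roles. Bace1, the beta-secretase, was at 0.74 and 0.94 in Ezh2-deleted LSK against 1.87 and 2.54 in intact LSK, and 3.34-fold higher in LSK than in MEP without Ezh2 (adjusted p = 0.0033). Cfp, the complement factor properdin, was at 2.81 and 2.90 in Ezh2-deleted LSK and lower in MEP by pair differences of -1.32 and -1.80 (2.95-fold), a call lost without Ezh2Δ/Δ LSK (adjusted p = 0.0619) or double-mutant MEP (0.0734). Dio2, the activating thyroid hormone deiodinase, was 2.68-fold higher in LSK, and that call was lost without Ezh2Δ/Δ LSK (0.0590), double-mutant LSK (0.125) or double-mutant MEP (0.0968).

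Probes disagreed for 2 of these genes. Kcnip3, a calcium-binding transcriptional repressor, was 10.5-fold higher in LSK without Ezh2 by its brightest probe, but its second probe gave 0.95 without and -0.70 with Ezh2. Ushbp1 was at -1.89 and -2.07 in Ezh2-deleted LSK and at -1.86 and -1.72 in the MEP, with differences of 0.03 and 0.35, whereas its second probe lay on the MEP side in both Ezh2 states, at 2.39 and 1.68.

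On the MEP side the 6 narrowed genes were Arhgef25, Crip2, Dpysl3, Hpn, Slc22a13b and Slc35d3. Crip2, a LIM protein, was at 3.08 and 2.29 in Ezh2-deleted LSK against 0.81 and 1.04 in intact LSK, and at 5.04 and 4.74 in Ezh2-deleted MEP. LSK remained below MEP, 4.60-fold without Ezh2 (adjusted p = 0.003), a call lost without double-mutant MEP (0.0518). Hpn, the membrane protease hepsin, was at 3.73 and 3.50 in Ezh2-deleted MEP against 4.95 and 5.08 in intact MEP and remained 27.0-fold higher in MEP than in LSK (adjusted p = 5.4e-05). Of the 6 genes 2 had a higher LSK level in both backgrounds and 2 a lower MEP level, each by at least 2-fold. The contrast of deleted with intact pairs passed for none of the 6 on all 8 arrays. Without WT LSK it was -2.77 for Arhgef25 and -2.92 for Slc22a13b.

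Dpysl3, a cytoskeletal protein of neurons, was the MEP gene counted as lost. It was above background in both Ezh2-deleted LSK samples, at -2.36 and -2.53, and below it in both intact ones. In MEP it was at -1.50 and 0.63 with Ezh2 intact, below background in Ezh2Δ/Δ and at -1.60 in the double mutant. Its difference was at least 2.50 and 3.99 in the intact pairs, at most -0.18 in the Ezh2Δ/Δ pair, where MEP has only a bound, and 0.93 in the double-mutant pair. The contrast of deleted with intact pairs did not pass the test on all 8 arrays, and it was -4.24 without WT LSK. A second probe gave 0.39 without and 0.71 with Ezh2, so the loss was not seen there. Slc35d3, a transporter of platelet granules, was at 0.11 in Ezh2Δ/Δ samples of both fractions and at -0.81 and -1.17 in double-mutant LSK and MEP (adjusted p = 0.67 for the difference). With Ezh2 intact MEP lay above LSK by 1.77 and 1.11.

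Of the 471 genes at least 4-fold higher in LSK in both deleted pairs 318 were so in both intact pairs too, and on the MEP side 126 of 149. On the array, with 20887 genes matched, 77 genes were above background in both Ezh2-deleted LSK samples and in no other sample. The counts were 15 for the intact LSK samples, 21 for Ezh2-deleted MEP and 18 for intact MEP. Probes above background made up 48.8% and 46.0% on the Ezh2-deleted LSK arrays, 48.0% and 43.3% on the intact LSK arrays and 39.8% to 44.1% on the MEP arrays. The part of this in the counts was not tested. Gzmb, the cytotoxic protease granzyme B, was at 0.46 and 1.34 in Ezh2-deleted LSK against -1.87 and -0.97 in intact LSK, and in MEP it was below background in Ezh2Δ/Δ and at -1.56 in the double mutant (at least 8.08-fold higher in LSK, adjusted p = 0.0082). That call was lost without Ezh2Δ/Δ MEP (0.0822) or double-mutant MEP (0.109). Nab2, a corepressor of EGR factors, was at 4.07 and 2.90 in LSK and at 0.36 and -0.43 in MEP without Ezh2, 11.5-fold apart (adjusted p = 0.00012), and its contrast of deleted with intact pairs was -1.41 (SE 0.35, adjusted p = 0.59). Il17rc, a chain of an interleukin receptor, was 3.49-fold higher in LSK without Ezh2, a call lost without Ezh2Δ/Δ MEP (adjusted p = 0.0575). On the MEP side Krtap31-1, a keratin-associated protein, was 3.15-fold and Olfr549, an olfactory receptor, 3.36-fold higher in MEP. Both calls were lost without double-mutant LSK (0.125 and 0.0608) or double-mutant MEP (0.104 and 0.0876), and that of Krtap31-1 also without Ezh2Δ/Δ MEP (0.163).

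The only gene that passed the test of deleted against intact pairs was 6330403K07Rik on chromosome 11. It was above background in Ezh2-deleted LSK (-1.79 and -2.01) and in intact MEP (-2.34 and -2.54), and below background in Ezh2-deleted MEP and intact LSK. The 2 fractions thus changed places with Ezh2 status in both JAK2 backgrounds. As measured, the contrast was -5.57 (SE 0.34, adjusted p = 0.0037), most of which comes from values below background. It was -2.18 (adjusted p = 0.212) with dim values at the floor and -1.20 (0.604) after normexp correction, and the call was lost without WT MEP (0.132), Ezh2Δ/Δ MEP (0.173) or double-mutant MEP (0.186).

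The lymphoid-priming genes had 11 of 21 members higher in LSK and 0 higher in MEP without Ezh2, and 6 and 1 with Ezh2 intact. Satb1, a chromatin organiser of lymphoid fate, was at 3.87 and 3.00 in LSK and at -0.94 and -1.77 in MEP (27.6-fold, adjusted p = 4.6e-05). Dntt, the terminal transferase of early lymphoid cells, was at 8.34 and 7.81 in LSK and at 3.43 and 0.17 in MEP (77.2-fold), against -1.23 in WT MEP and a value below background in JAK2V617F MEP. Ccr9, a chemokine receptor, was above background only in the 2 Ezh2-deleted LSK samples, at -0.66 and -1.29 (at least 3.65-fold, adjusted p = 0.00019). Il7r, the interleukin 7 receptor, was at -0.48 and -0.80 in those samples and below background in MEP (at least 4.61-fold, a call lost without double-mutant MEP, adjusted p = 0.0927).

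Markers of mature B cells were higher than with Ezh2 intact in Ezh2Δ/Δ LSK and in both Ezh2-deleted MEP samples. In double-mutant LSK their summed level lay between the intact LSK values. Of 8 B cell markers 7 were on the array, and their summed level was 5.17 in Ezh2Δ/Δ LSK, 4.19 in double-mutant LSK, 4.72 in Ezh2Δ/Δ MEP and 2.05 in double-mutant MEP, against 3.98 and 4.39 in intact LSK and at most 1.35 in intact MEP. Of 5 B cell genes measured Cd79b alone was called, 3.47-fold higher in LSK, and that call was lost without 5 of the 8 arrays (highest adjusted p = 0.126, without double-mutant MEP). Of 9 T and NK cell genes 4 were higher in LSK and 0 in MEP, namely Lck, a kinase of T cell signalling (13.7-fold), Gzmb, Klrb1c (at least 1.53-fold) and Nkg7 (2.07-fold). The Klrb1c call was lost without Ezh2Δ/Δ MEP (0.0657) or double-mutant MEP (0.107), and that of Nkg7 without Ezh2Δ/Δ LSK (0.170), double-mutant LSK (0.178) or double-mutant MEP (0.128). The summed level of 8 T and NK markers lay between 2.78 and 3.32 on all 8 arrays. The part of B, T and NK cells in the lymphoid genes was not tested.

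**Figure D4:**
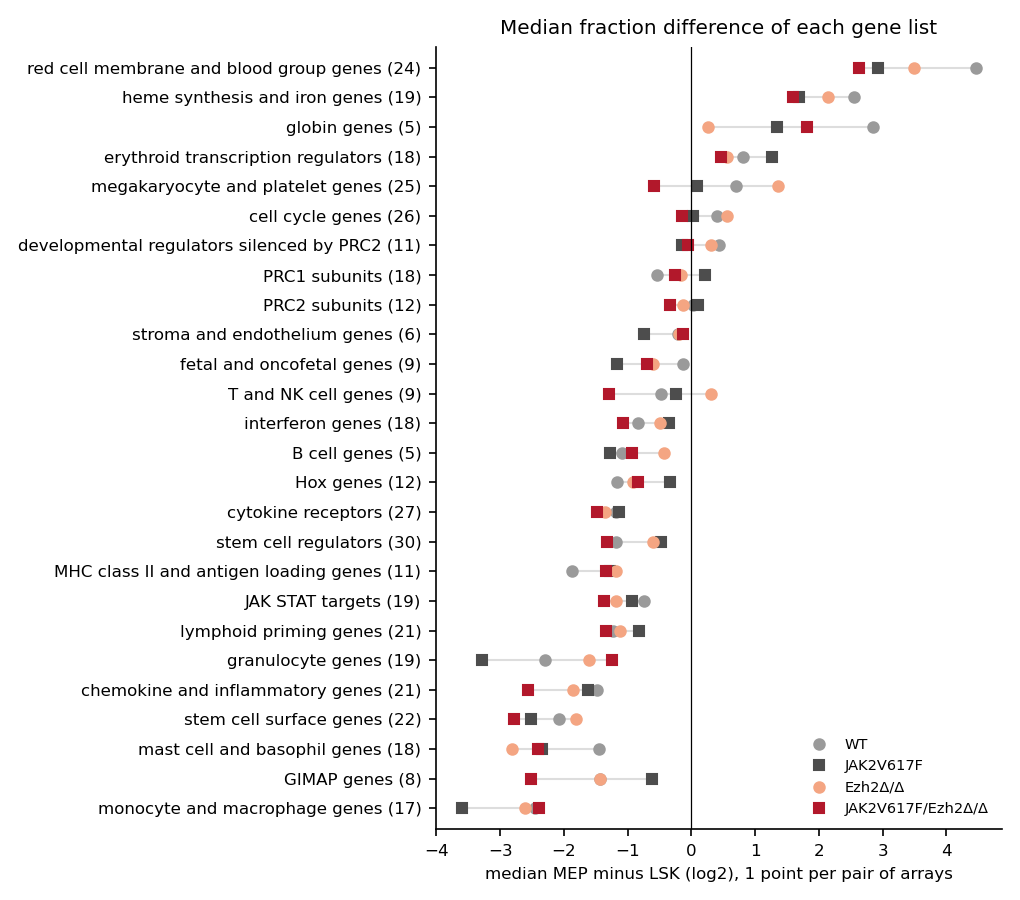
Median difference of MEP minus LSK (log2) of 26 gene lists in each of the 4 pairs, 1 point per pair, with the number of genes in parentheses. Red cell and heme genes lie right of 0 in all pairs and monocyte, GIMAP, mast cell and stem cell surface genes left of it, while the megakaryocyte list lies at 1.36 in the Ezh2Δ/Δ pair and -0.58 in the double-mutant pair.

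Inflammatory, mast cell and GIMAP genes were LSK genes without Ezh2, as they were with Ezh2 intact. With Ezh2 intact 11 of 21, 10 of 18 and 6 of 8 were called higher in LSK, and 2, 1 and 0 higher in MEP. Without Ezh2, of 21 chemokine and inflammatory genes 13 were higher in LSK and 1 higher in MEP, Tnfaip2 (6.44-fold). Ccl4, a macrophage chemokine, was at 5.06 and 4.12 in LSK and at -1.34 and -1.37 in MEP (61.5-fold), and Il1r1, the interleukin 1 receptor, was at least 25.8-fold apart. Of 18 mast cell and basophil genes 13 were higher in LSK and 1 in MEP, Il1rl1, the receptor of interleukin 33 (5.12-fold, adjusted p = 0.029). That call was lost without Ezh2Δ/Δ LSK (0.124), Ezh2Δ/Δ MEP (0.210), WT MEP or JAK2V617F MEP (both 0.0692). Those higher in LSK were led by the proteases Mcpt4 (at least 59.6-fold), Cma1 (at least 13.4-fold) and Cpa3 (11.6-fold). Of 8 GIMAP genes, GTPases of lymphocyte survival, 6 were higher in LSK, with Gimap6 at 5.19 and 4.97 in LSK and at 2.13 and 1.79 in MEP (8.70-fold, adjusted p = 0.001). The summed level of 5 mast cell markers was 4.14 and 5.02 in Ezh2-deleted LSK and 0.29 and 0.77 in the MEP, with Cpa3 and Fcer1a above background on all 8 arrays.

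Of 27 cytokine receptors 16 were higher in LSK and 2 higher in MEP (Epor and Il1rl1) without Ezh2, against 14 and 3 with it. Epor, the erythropoietin receptor, was at 5.40 and 4.94 in MEP and at -0.04 and 1.62 in LSK (20.8-fold, adjusted p = 0.00071). The beta chains Csf2rb and Csf2rb2, shared by receptors of interleukin 3 and GM-CSF, were at least 30.7-fold and 24.2-fold higher in LSK, and Il10ra, the interleukin 10 receptor, at least 10.8-fold. Of 19 JAK-STAT targets 11 were higher in LSK and 0 higher in MEP, among them the feedback inhibitor Socs3 (7.02-fold), the survival kinase Pim2 (5.93-fold), Bcl6 (4.64-fold) and Stat3 (3.48-fold). Of 18 interferon genes 7 were higher in LSK and 0 in MEP, including Ifi27l2a (5.26-fold) and Ifi44 (5.02-fold). Of 11 MHC class II genes 7 were, with H2-DMa 3.03-fold and H2-DMb1 2.99-fold higher in LSK. With Ezh2 intact 8 JAK-STAT targets, 7 interferon genes and 7 MHC class II genes were called higher in LSK, and 1, 1 and 0 higher in MEP. The H2-DMa call was lost without double-mutant LSK (adjusted p = 0.0506) or double-mutant MEP (0.0629), and that of H2-DMb1 without double-mutant MEP (0.0512).

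The test called no polycomb gene. Of 12 PRC2 subunits and 18 PRC1 subunits 0 were called in either direction without Ezh2, where 18.4% of all genes were. Ezh1, the paralogue that can take the place of Ezh2, was at 3.71 and 3.30 in Ezh2-deleted LSK and at 3.40 and 2.65 in the MEP (adjusted p = 0.37), and Mtf2 and Phf19, accessory subunits, were 1.61-fold and 1.54-fold higher in LSK (adjusted p = 0.095 and 0.12). Of 33 developmental regulators known as PRC2 targets only 11 were above background in both pairs. Of those 11 Nkx2-3, a homeobox gene, and Cdkn1c, a cell cycle inhibitor of resting stem cells, were higher in LSK (at least 12.8-fold and 5.02-fold), and the inhibitor Cdkn2b was higher in MEP (at least 3.91-fold). The Nkx2-3 call was lost without Ezh2Δ/Δ MEP (adjusted p = 0.101), and that of Cdkn1c without Ezh2Δ/Δ MEP (0.0608) or double-mutant MEP (0.0738).

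Of 12 Hox genes above background 5 were higher in LSK, with Hoxa7 at 3.34 and 3.52 in LSK and at 1.60 and 1.41 in MEP (3.80-fold, adjusted p = 0.0052). All 5 calls, of Hoxa3, Hoxa5, Hoxa7, Hoxa10 and Hoxb2, were lost without at least 1 array (highest adjusted p from 0.0670 for Hoxa7 to 0.247 for Hoxa3, both without double-mutant MEP). Of 9 fetal genes 3 were higher in LSK, Hmga2, Afp and Dlk1, an imprinted Notch-like gene (at least 5.80-fold). Hmga2, an architectural DNA-binding protein abundant in fetal cells, was at 2.34 and 1.88 in Ezh2-deleted LSK and at -1.81 and -1.66 in Ezh2-deleted MEP, against 0.51 and -0.47 in intact LSK and values below background in intact MEP. LSK stayed 14.3-fold above MEP without Ezh2 (adjusted p = 0.00022). Of 26 cell cycle genes 1 was called, where 18.4% of all genes fitted were. It was Ccne1, a cyclin of S phase entry, 4.18-fold higher in MEP (adjusted p = 0.038). That call was lost without Ezh2Δ/Δ LSK (0.225), Ezh2Δ/Δ MEP (0.275) or double-mutant MEP (0.108). Mki67, the proliferation antigen, was at 5.65 and 5.66 in LSK and at 6.24 and 6.21 in MEP (adjusted p = 0.19). Of 6 stroma and endothelium genes Col1a2 was higher in MEP (6.98-fold), and Pdgfrb (8.77-fold) and Sparc (7.30-fold) were higher in LSK. The Pdgfrb call was lost without double-mutant MEP (0.0723), and that of Sparc without double-mutant LSK (0.0579), Ezh2Δ/Δ MEP (0.167) or double-mutant MEP (0.103). Of 6 markers of these cells only Lepr was above background on the Ezh2-deleted arrays.

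The 2 Ezh2-deleted pairs stood apart from each other in megakaryocyte genes. Of 25 megakaryocyte and platelet genes 2 were higher in MEP (Gata1 and Gp5) and 3 higher in LSK, among them Selp and Nbeal2. Over all genes fitted 5.44% were higher in MEP and 13.0% in LSK. The list median was 1.36 in the Ezh2Δ/Δ pair and -0.58 in the double-mutant pair, and 0.70 and 0.09 in the WT and JAK2V617F pairs. For 23 of the 25 genes the difference was larger in the Ezh2Δ/Δ than in the double-mutant pair, where this held for 68.3% of all genes described here, and for 18 of 25 it was larger in the WT than in the JAK2V617F pair. There is 1 pair on each side, so this has no replicate check.

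**Figure D5:**
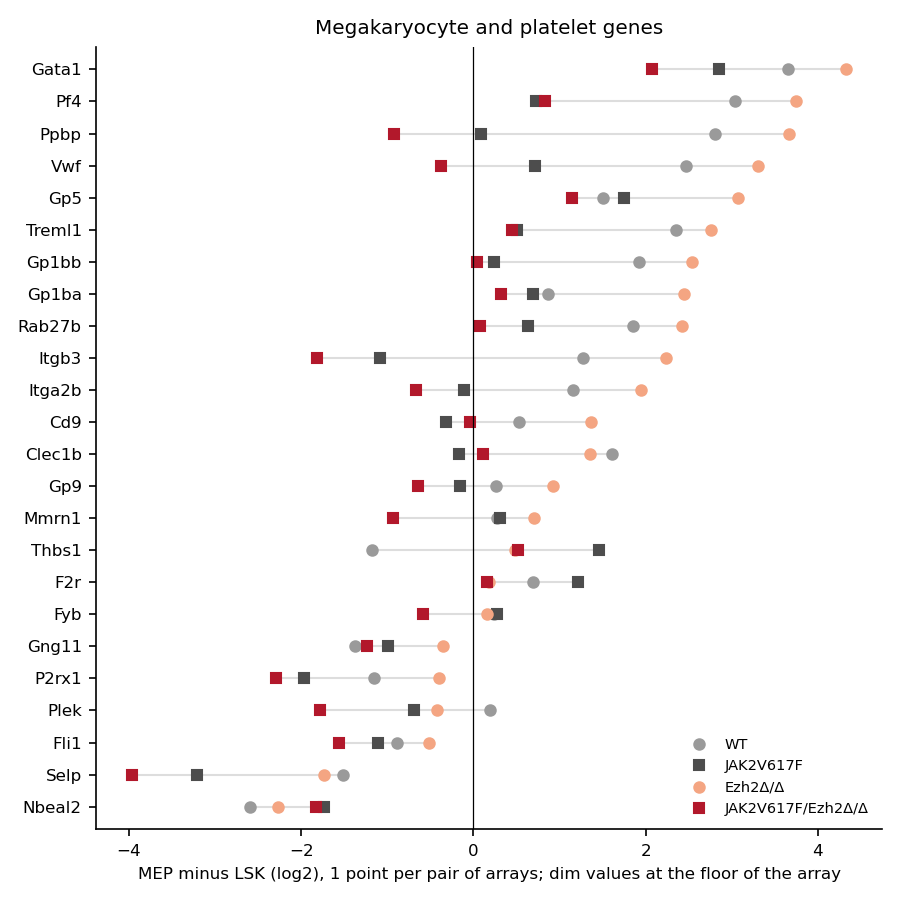
Difference of MEP minus LSK (log2) of 24 of the 25 megakaryocyte and platelet genes in each of the 4 pairs, ordered by the Ezh2Δ/Δ pair. The Ezh2Δ/Δ points lie furthest right for most genes, above all in the upper part, and the double-mutant points mostly furthest left, with Itgb3 at 2.24 and -1.82.

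Itgb3, the platelet integrin beta 3, was at 3.22 in Ezh2Δ/Δ MEP and at 0.04 in double-mutant MEP, against 0.98 and 1.86 in the LSK. MEP thus lay above LSK without JAK2V617F and below it with JAK2V617F, as in the intact pairs (1.27 and -1.08). Gp5, the platelet glycoprotein V, was at 1.78 and 0.89 in MEP and at -1.29 and -0.26 in LSK (4.32-fold, adjusted p = 0.011), a call lost without Ezh2Δ/Δ LSK (0.0783) or Ezh2Δ/Δ MEP (0.0929). Selp, P-selectin, was 7.20-fold higher in LSK, a call lost without double-mutant MEP (0.116), and Nbeal2, needed for platelet alpha granules, 4.12-fold (adjusted p = 0.0025). Pf4 and Ppbp, platelet chemokines named after their values were seen, were at 8.89 and 0.40 in Ezh2Δ/Δ MEP, and in double-mutant MEP Pf4 was at 6.70 and Ppbp below background. Their differences were 3.75 and 3.66 in the Ezh2Δ/Δ pair and 0.83 and -0.92 in the double-mutant pair, and neither passed the test (adjusted p = 0.064 and 0.56).

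Across all genes 17 were at least 2-fold apart in opposite directions in the 2 Ezh2-deleted pairs, and 19 in the 2 intact pairs, with 1 in both sets, Itgb3. Of the 17, 14 were higher in MEP without JAK2V617F and lower with it, and for 10 of the 14 the intact difference was also larger without JAK2V617F. Clu, the chaperone clusterin of platelet granules, was higher in MEP by 1.31 in the Ezh2Δ/Δ pair and lower by a difference of -2.16 in the double-mutant pair. Gria3, a glutamate receptor subunit, was at 1.89 in Ezh2Δ/Δ MEP and below background in the other 3 MEP samples, so it rests on 1 array, and its second probe gave a mean of -2.76 over the deleted pairs. Apcdd1, Ear10 and Igflr1 went the other way, with Igflr1 at -1.38 in the Ezh2Δ/Δ pair and 1.12 in the double-mutant pair.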

How the data were processed

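RNA (20 ng, Cy3) of 8 sorted samples was hybridised to Agilent arrays on 1 slide. The deposited scanner tables hold the processed signal intensity of each spot, background-subtracted by Feature Extraction 10.7.1.1 per the file headers. The series value table deposited by the authors holds the linear ratio of that signal to a factor of each array, which followed the 75th percentile, and serves as an alternative. The coordinates per the file headers are of NCBI37, and none is printed.

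Log2 intensities minus the 75th percentile of the array were taken, without control spots and spots flagged as non-uniform. Of 55681 probes 27509 (49.4%) matched a RefSeq gene by transcript accession, giving 20887 genes, each read by its brightest probe. limma 3.58.1 in R 4.3.3 was fitted to all 8 arrays, with JAK2 genotype, Ezh2 status and cell type within each Ezh2 status as terms, over the 13187 genes well above background on at least 2 arrays, with Benjamini-Hochberg adjustment and a threshold of 0.05. The fit has 3 residual degrees of freedom and assumes that JAK2 acts alike in both fractions and in both Ezh2 states. Each group has 1 array, nothing in the labels says how many animals it holds, and p-values measure the spread between genotypes only. The number of arrays limits the precision. The test was tried on simulated data of 13187 genes with 50 genes altered at each of 4 sizes, where it made 10 false calls.

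The members, gene lists and comparisons were chosen with earlier results of these data known. Named genes are Ezh2, Jak2, the markers, up to 10 called genes each way, the genes that lost or gained fraction specificity, those called for deleted against intact pairs, up to 6 each way with opposite pairs, up to 6 of each of 26 lists by the smaller pair difference, and list members behind a count of 5 or fewer. Alternatives were the background correction, normalization, probe and dim-value rules, filters, terms, variance prior, thresholds and each array left out. Tables and plots were made with Python 3.11.15, pandas 2.3.3 and matplotlib 3.10.9. Some genes that this rule names are not reported here.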

Additional observations from a re-analysis of the deposited data

Results flagged for a closer look

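Among the genes named here 3 were flagged because both Ezh2-intact pairs went one way and both Ezh2-deleted pairs the other. This is not a count over all genes on the array. For 6330403K07Rik the limma test of the deleted against the intact difference passed, at -5.574 (adjusted p = 0.0037), and it rests on values below background as given in the report. For Ascl2 the contrast was 2.058 and for Ushbp1 1.586, and the test did not pass for either (adjusted p = 0.29 and 0.48). The part of marrow sex, which moved with Ezh2 status, was not tested.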

How the results depend on the processing

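The direction of MEP over LSK with Ezh2 deleted was kept for all 142 named called genes under every setting that gave a value, and with arrays left out 129 of 1136 such calls, of 55 genes, missed the threshold. Under the other settings 13 of 1639 missed it. Of the 142, 80 were called in a fit of genes above background on all 8 arrays, which tests fewer genes, and 98 to 142 with an array left out. The 2433 genes called without Ezh2 ranged from 1196 to 2782 with an array left out, and the 2653 with Ezh2 intact from 1331 to 2524. The single gene called for deleted against intact pairs became 0 after normexp or with dim values at the floor, 7 after quantile normalization, 4 with the mean over probes, 2 above background on at least 4 or on all 8 arrays, 3 with a variance trend and 9 at an adjusted p under 0.10, with 0 to 93 over arrays left out. The 2 lost LSK genes became 0 after normexp or at 8-fold, 1 after quantile normalization, at 1.5-fold or with the dimmer side above background, 4 with dim values as measured, and 3 to 12 with an array left out. The 1 lost MEP gene became 0 after normexp, at 8-fold or at 1.5-fold, 2 with the mean over probes or dim values as measured, and 4 to 22. The 24 narrowed LSK genes became 12 after normexp and 52 to 87 with an array left out. The 6 narrowed MEP genes became 3 after normexp, 12 with the mean over probes, 11 with dim values as measured and 21 to 104. The cause of these moves was not tested, except that leaving out an array also leaves fewer pairs to meet a rule. Signal over background limits the genes dim in 1 fraction to lower bounds. By replicate number, no paired analysis was possible because every array has the number 1. A fit with genotype as a block of 4 levels sets each MEP against its own LSK and called 2359 genes without Ezh2 and 1 for deleted against intact pairs.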
